A study of Mus musculus with 4 samples.

Results

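Chemokines are small secreted proteins that guide the movement of cells, and the genes described here are the chemokine ligands (Ccl, Cxcl, Cx3cl and Xcl symbols), their signalling receptors (Ccr, Cxcr, Cx3cr and Xcr) and the atypical receptors (Ackr) in livers of mice on the DDC diet. They were chosen by symbol alone, and 66 of the 32292 features of the count table matched. The 66 features carried 60 symbols, because 5 symbols (copies of Ccl19, Ccl21 and Ccl27 genes) stood on 11 features. By role there were 44 ligand, 18 receptor and 4 atypical receptor features. Single-nucleus RNA sequencing, which counts RNA molecules (UMIs, unique molecular identifiers) in droplets that each hold a barcode, was done on fresh-frozen livers of male mice that were 10 to 11 weeks old when the 4 weeks of DDC began. WT libraries (replicates 1 and 2) came from wild-type mice, and CKO libraries (replicates 1 and 2) from mice with a knockout of Rbpj limited to hepatic progenitor cells. All 4 libraries shared the diet, so no library showed an uninjured liver. The Cre driver of the knockout and whether a library came from 1 animal or several are not given in the sources used here, so p-values measure the spread between these libraries, which may be technical.

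Chemokines bind to receptors of the G protein-coupled family on the cells they attract, and the displayed gradient sets the direction of movement. Atypical receptors bind chemokines without coupling to G proteins, and take the ligand up or hold it. In injured liver, bile duct cells, stellate cells and macrophages are known sources of chemokines, and monocytes, macrophages, dendritic cells and lymphocytes carry most of the receptors. RBPJ is the DNA-binding partner through which Notch receptors act on transcription.

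Values are given in the order WT replicate 1, WT replicate 2, CKO replicate 1 and CKO replicate 2 throughout. The libraries held 45620141, 13914845, 38003108 and 12261329 UMIs in 16000, 6480, 16000 and 5184 barcodes, with 1722 to 2267 UMIs in the median barcode, and pairs of libraries shared 19 to 114 barcode sequences. After removal of likely doublets 39017 barcodes were kept, of which 18276 fell in clusters named by markers and 20741 in clusters that no marker list named. The named nuclei resembled hepatocytes (5475), macrophages (5516), endothelial cells (2643), cholangiocytes, the cells of bile ducts (2323), mesenchymal cells (1377), dendritic cells (381), T and NK cells (288), B cells (173) and mesothelial cells (100). All marker genes of each list had at least 1 UMI in its own class. The same lists named the classes, so this is no check of the names. Hepatocyte-like, macrophage-like, endothelial-like and unnamed clusters were largely separate for each library. CKO replicate 2 held few nuclei outside the hepatocytes, with 45 cholangiocyte-like, 152 endothelial-like, 90 mesenchymal-like and 169 macrophage-like nuclei. Levels are CPM, the UMIs of a gene scaled to a common total of UMIs for its class and library. The level in unnamed barcodes, whose RNA was rich in hepatocyte transcripts, is given beside them as the background that free RNA may add, and a level is called raised at 1.5 times that background or more. A count of 0 allows a level of up to 3 UMIs, a limit that covers counting error only.

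The 3 ligand genes Cxcl1, Cxcl2 and Cxcl3 lie in a cluster on chromosome 5 and encode attractants of neutrophils. The 250 bases before their start sites are printed because Cxcl1 and Cxcl2 were raised in cholangiocyte-like nuclei while Cxcl3 stayed near the background. Ccl9 and Cxcl9 follow because each had the smallest p-value between genotypes of the tested chemokine genes in some of the classes. Cxcl12 follows because it was the ligand with most UMIs. The windows are from RefSeq on GRCm38.p6. Capitals mark matches on either strand to GGG, then 3 bases of any kind, then TTCC, a pattern of the kind bound by NF-kappaB, in the first 5 windows, and to TGGGAA, the core letters of RBPJ sites, in Cxcl12.

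Cxcl1, chr5:90890995-90891244, plus strand: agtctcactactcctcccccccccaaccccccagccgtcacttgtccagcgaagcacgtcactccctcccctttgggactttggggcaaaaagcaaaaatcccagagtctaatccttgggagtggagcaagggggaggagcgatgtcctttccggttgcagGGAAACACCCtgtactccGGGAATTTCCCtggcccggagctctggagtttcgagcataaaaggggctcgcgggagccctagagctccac

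Cxcl2, chr5:90903649-90903898, plus strand: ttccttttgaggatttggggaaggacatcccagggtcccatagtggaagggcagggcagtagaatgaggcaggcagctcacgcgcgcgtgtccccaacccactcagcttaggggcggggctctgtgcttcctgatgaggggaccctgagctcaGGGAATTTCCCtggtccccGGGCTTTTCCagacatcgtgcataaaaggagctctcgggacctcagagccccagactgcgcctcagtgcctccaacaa

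Cxcl3, chr5:90785851-90786100, plus strand: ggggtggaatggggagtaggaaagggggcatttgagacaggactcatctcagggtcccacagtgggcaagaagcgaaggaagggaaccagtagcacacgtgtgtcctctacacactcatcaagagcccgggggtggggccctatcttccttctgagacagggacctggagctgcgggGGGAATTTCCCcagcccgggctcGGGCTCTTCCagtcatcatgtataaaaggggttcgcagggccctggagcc

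Ccl9, chr11:83578637-83578886, minus strand: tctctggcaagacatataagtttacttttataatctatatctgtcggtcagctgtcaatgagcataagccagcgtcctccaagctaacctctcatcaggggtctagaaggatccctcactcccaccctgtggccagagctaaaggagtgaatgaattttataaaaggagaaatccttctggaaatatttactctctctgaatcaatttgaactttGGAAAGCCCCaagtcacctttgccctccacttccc

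Cxcl9, chr5:92328080-92328329, minus strand: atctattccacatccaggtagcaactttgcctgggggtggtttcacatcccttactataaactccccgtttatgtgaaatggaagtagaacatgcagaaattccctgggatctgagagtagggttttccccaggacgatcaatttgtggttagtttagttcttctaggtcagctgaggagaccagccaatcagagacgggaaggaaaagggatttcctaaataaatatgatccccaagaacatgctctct

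Cxcl12, chr6:117168285-117168534, plus strand: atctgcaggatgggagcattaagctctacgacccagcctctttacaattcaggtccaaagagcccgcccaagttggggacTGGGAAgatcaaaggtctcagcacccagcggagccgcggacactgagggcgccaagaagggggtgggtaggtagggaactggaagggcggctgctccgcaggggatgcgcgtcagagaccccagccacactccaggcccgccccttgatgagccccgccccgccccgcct

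Cxcl1, Cxcl2 and Cxcl3 share the 11-base run GGGAATTTCCC, which lies 71 to 61, 97 to 87 and 73 to 63 bases before the start. This run reads as a match on both strands and occurs in 14 of all 32851 windows of that length (0.0426%). Each of the 3 holds a further match, GGAAACACCC in Cxcl1, GGGCTTTTCC in Cxcl2 and GGGCTCTTCC in Cxcl3. In Ccl9 the match GGAAAGCCCC lies 35 to 26 bases before the start, and Cxcl9 holds neither pattern in this window. Of the 60 symbols 45 had a window, some of them several, and the NF-kappaB-type letters matched 9 of their 52 windows (17.3%), against 4.65% of all windows. The letters TGGGAA, which can overlap the first pattern, matched 13 of the 52 (25.0%), against 21.6% of all windows. The interferon-type letters, TTTC, then 2 bases of any kind, then TTTC, matched 3 of the 52 (5.77%), against 2.98%. These are counts of letters and say nothing of binding.

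**Figure D1:**
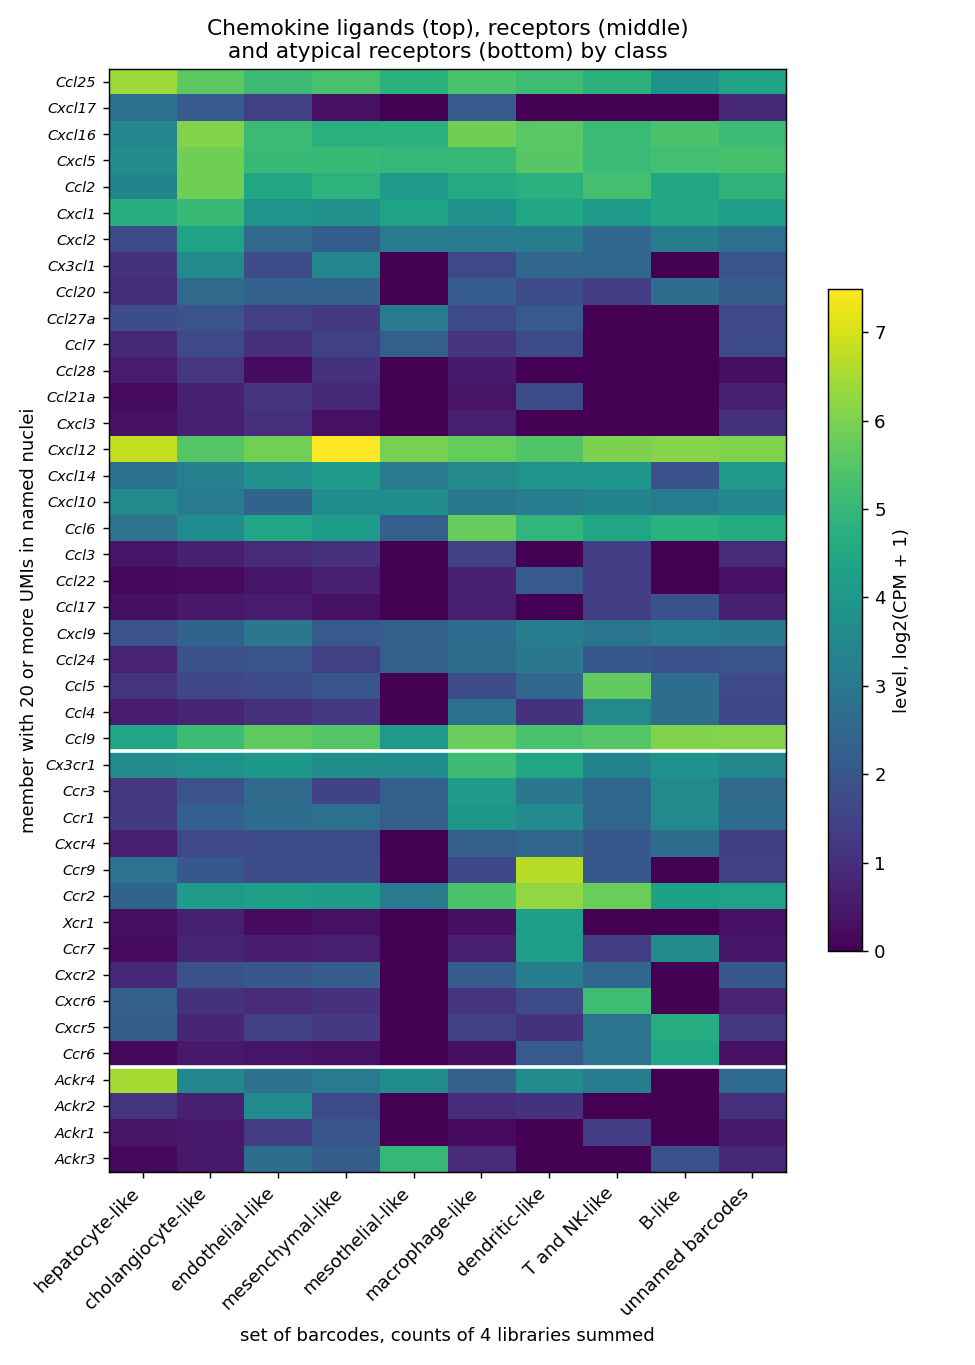
Level of each described gene with 20 or more UMIs in named nuclei (rows: ligands on top, then receptors, then atypical receptors) in each class and in unnamed barcodes (columns), as log2(CPM + 1) of the counts of 4 libraries summed, brighter being higher. Cxcl12 is brightest in the mesenchymal-like column, at 179 CPM.

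Of the 66 features, 57 had at least 1 UMI, 9 were at 0 (all copies of Ccl19, Ccl21 or Ccl27 genes, whose reads may be split among near-identical copies), and 43 had 20 or more UMIs in named nuclei. These 43 were 26 ligands, 13 receptors and all 4 atypical receptors. The 57 genes gave 29052 UMIs in named nuclei and 17870 in unnamed barcodes. Over all kept barcodes they took up 550.0, 341, 522 and 288 CPM, more in both first replicates than in both second replicates. The 14 genes with 1 to 19 UMIs in named nuclei were Ccl1, Ccl8, Ccl11, Ccl12, Ccl26, Cxcl13, Cxcl15, Xcl1, Ccr4, Ccr8, Ccr10, Cxcr1, Cxcr3 and 1 copy of Ccl19, and their levels are not described. For 33 of the 43 the highest class (of those with 5 or more UMIs) was raised over unnamed barcodes. Taking the highest of several classes favours passing this rule, and its share among all genes was not computed. The count thus describes these genes and does not set them apart from others. The plot of levels by class shows that ligands were spread over parenchymal, ductal, stromal and myeloid columns, and receptors lay mainly in immune columns. Genes of unlike capture are not ranked against each other.

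Among ligands, Cxcl12, which attracts CXCR4-bearing cells and is known from stromal cells, was highest in mesenchymal-like nuclei. Its level there was 207, 117, 144 and 204 CPM (413, 50, 150 and 36 UMIs), against 76.6, 45.1, 68.8 and 50.4 CPM in unnamed barcodes. Each library stood above its own background, and the summed level was 2.75 times that background. Within the class, stellate-like nuclei had 243, 161, 196 and 190.2 CPM (143, 15, 17 and 2 UMIs) and portal fibroblast-like nuclei 127, 105, 89.2 and 0 CPM (51, 9, 12 and 0 UMIs). In the 3 libraries with portal fibroblast-like UMIs the stellate-like level was the higher one. Hepatocyte-like nuclei came next, with 130.1, 92.9, 96.0 and 98.0 CPM, also above the background in each library.

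Hepatocyte-like nuclei were highest for 2 more ligands. Ccl25, the attractant of CCR9-bearing cells, stood at 91.2, 77.3, 69.9 and 81.9 CPM there (960, 330, 351 and 460 UMIs), against 28.3, 16.2, 17.5 and 13.6 CPM in unnamed barcodes. The 4 libraries lay close together, and the summed level was 4.17 times the background. Ccl25 (chr8:4325210-4360020, plus strand) overlaps exons of Elavl1 on the other strand, and Elavl1 had similar levels in hepatocyte-like nuclei (62.7 to 76.9 CPM), so reads of the pair may not be told apart. Cxcl17, a ligand of mucosal surfaces, had 4.46, 5.62, 1.99 and 11.0 CPM (47, 24, 10 and 62 UMIs), against 1.34, 0.309, 0.394 and 1.56 CPM. It also overlaps a counted antisense gene, 4732471J01Rik.

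Cholangiocyte-like nuclei were the highest class for 10 ligands, of which 6 were raised. Cxcl1 had 36.8, 18.8, 27.7 and 10.3 CPM there (172, 13, 41 and 1 UMIs), against 19.1, 12.1, 21.0 and 6.43 CPM in unnamed barcodes. Hepatocyte-like nuclei came close for Cxcl1, with 29.3, 19.9, 41.8 and 7.12 CPM (308, 85, 210 and 40 UMIs), and were higher than the cholangiocyte-like level in WT replicate 2 and CKO replicate 1. Cxcl2 had 19.9, 21.7, 17.6 and 10.3 CPM in cholangiocyte-like nuclei (93, 15, 26 and 1 UMIs), against 7.84, 5.56, 5.69 and 1.36 CPM. Both neutrophil attractants were above the background in each library. Cxcl3, whose promoter has the same 11-base run, had its highest level in endothelial-like nuclei, at 1.57, 0, 0.491 and 0 CPM (5, 0, 1 and 0 UMIs), against 2.14, 0.927, 0.902 and 0 CPM in unnamed barcodes. Cxcl5, a further attractant of this kind, had 59.4, 59.4, 53.4 and 0 CPM in cholangiocyte-like nuclei (278, 41, 79 and 0 UMIs). It was not raised, because unnamed barcodes held 58.3, 53.3, 32.6 and 1.17 CPM.

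Ccl2, the main attractant of CCR2-bearing monocytes, had 56.6, 23.2, 78.4 and 10.3 CPM in cholangiocyte-like nuclei (265, 16, 116 and 1 UMIs), against 37.0, 14.1, 35.8 and 1.17 CPM. All 4 were above the background, but Gm17268 on the other strand overlaps Ccl2 and was itself highest in cholangiocyte-like nuclei, at 239, 217, 158 and 92.4 CPM. Cxcl16, a membrane-bound ligand of CXCR6, had 66.0, 56.5, 72.3 and 20.5 CPM (309, 39, 107 and 2 UMIs), against 48.3, 26.1, 35.2 and 6.82 CPM. Macrophage-like nuclei came close for Cxcl16, with 70.3, 43.7, 43.8 and 19 CPM, and were higher than the cholangiocyte-like level in WT replicate 1. Cxcl16 overlaps exons of Zmynd15, a counted gene on the other strand, so its values are uncertain. Zmynd15 had summed levels of 12.7 CPM in cholangiocyte-like and 19.8 CPM in macrophage-like nuclei, against 5.10 CPM in unnamed barcodes. Cx3cl1, the membrane-bound ligand of CX3CR1, had 10.3, 7.25, 14.2 and 10.3 CPM (48, 5, 21 and 1 UMIs), against 4.90, 2.78, 2.42 and 0.389 CPM. In portal fibroblast-like nuclei Cx3cl1 reached 34.8, 11.7, 29.7 and 0 CPM (14, 1, 4 and 0 UMIs), more than in cholangiocyte-like nuclei in the 3 libraries with UMIs. Ccl28, an epithelial ligand, had 1.28, 1.45, 1.35 and 0 CPM (6, 1, 2 and 0 UMIs), against 0.178, 0.309, 0.282 and 0 CPM. The cholangiocyte-like values of CKO replicate 2 rest on 0 to 2 UMIs for each of these ligands, and a count of 0 there allows up to 30.8 CPM.

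Ccl7, Ccl20 and Ccl27a were highest in cholangiocyte-like nuclei without being raised. Ccl7, a further ligand of CCR2, had 2.14, 1.45, 2.70 and 0 CPM (10, 1, 4 and 0 UMIs), against 1.69, 1.24, 3.44 and 0.389 CPM. Ccl20, the ligand of CCR6, had 5.34, 2.90, 5.41 and 0 CPM (25, 2, 8 and 0 UMIs), against 4.90, 2.01, 4.51 and 0 CPM. For Ccl27a, a ligand of CCR10 present in several copies, the values were 2.78, 4.35, 2.03 and 0 CPM (13, 3, 3 and 0 UMIs), against 2.94, 2.63, 1.63 and 1.36 CPM. The 3 ligands thus cannot be placed in a class at this depth. Cxcl10 and Cxcl14, the first an interferon-induced ligand of CXCR3, were highest in mesenchymal-like nuclei and likewise near the background. Cxcl10 had 12.6, 9.35, 11.5 and 5.67 CPM (25, 4, 12 and 1 UMIs), against 9.36, 9.43, 13.6 and 2.53 CPM. It overlaps exons of Art3, and Ccl27a those of Il11ra1, both counted genes on the other strand. Cxcl14 had 15.6, 9.35, 22.1 and 11.3 CPM (31, 4, 23 and 2 UMIs), against 20.9, 11.3, 15.9 and 7.98 CPM. Ccl21a, a ligand of CCR7 known from lymphatic vessels, had 7 UMIs in endothelial-like nuclei (3, 4, 0 and 0), or 0.939, 9.08, 0 and 0 CPM, against 1.51, 0.309, 0.338 and 0 CPM, so in the whole class only WT replicate 2 was above its background. The 31 lymphatic-like nuclei (23, 5, 3 and 0) held 6 of these UMIs. WT replicates 1 and 2 had 30.7 and 387 CPM there (2 and 4 UMIs), both above their backgrounds.

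**Figure D2:**
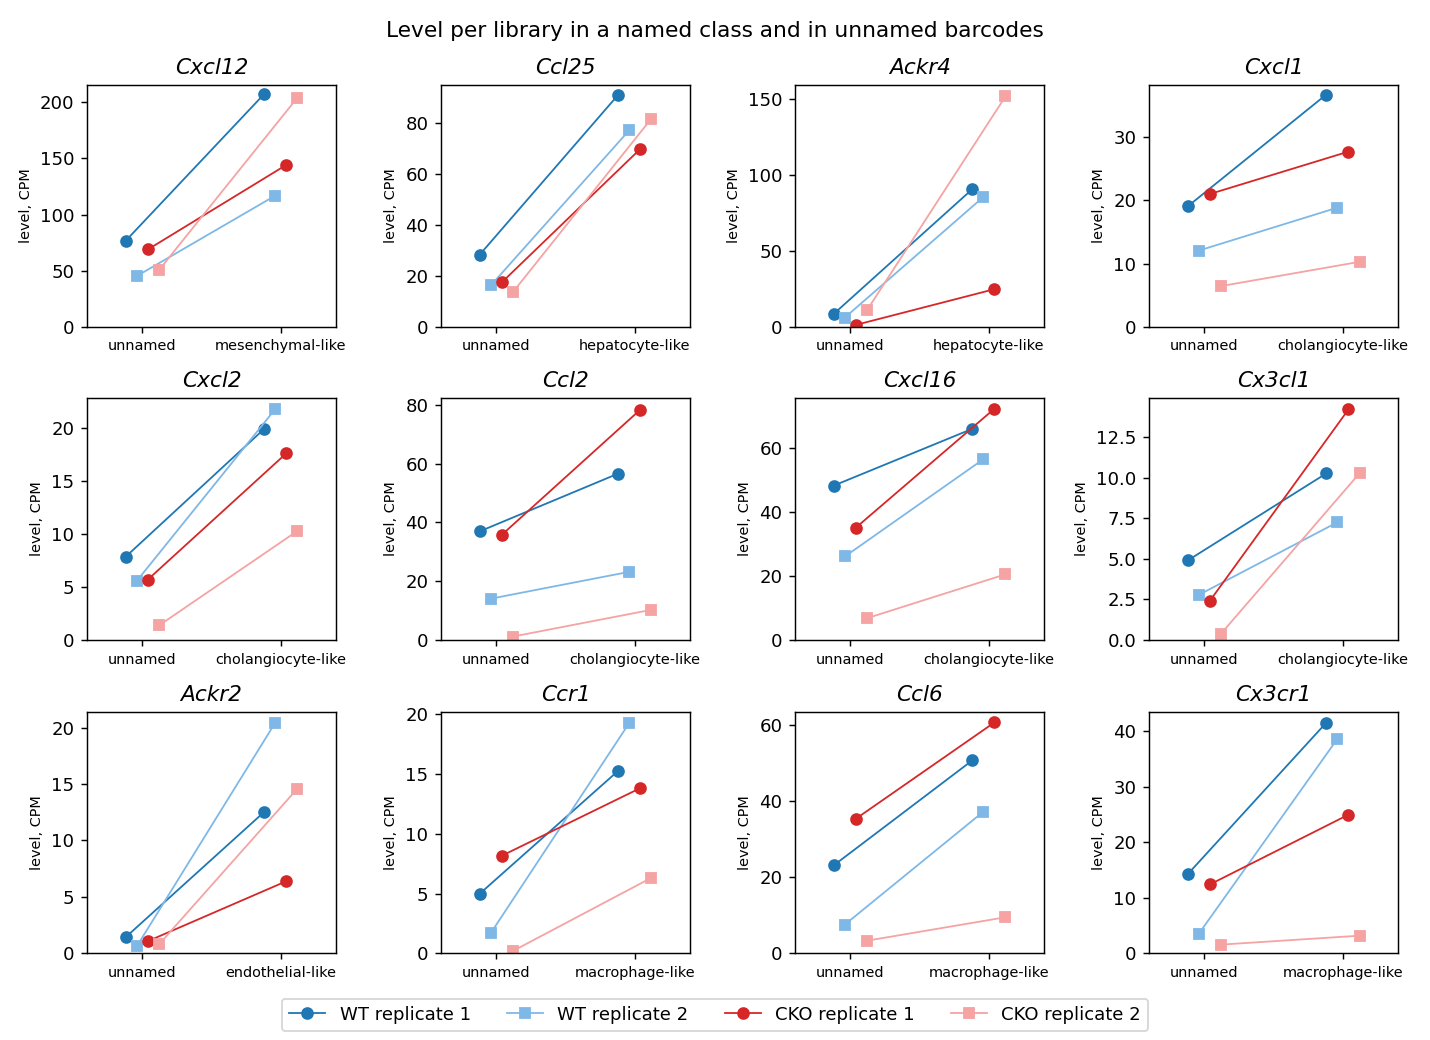
Level of 12 genes in CPM (y axis) in unnamed barcodes and in the gene's class (x axis), with 1 line and marker for each library (blue WT, red CKO, circles replicate 1, squares replicate 2). Ccl25 rises from 13.6 to 28.3 CPM in unnamed barcodes to 69.9 to 91.2 CPM in hepatocyte-like nuclei, and Ackr4 of CKO replicate 1 lies below the other libraries.

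Macrophage-like nuclei were the highest class for Ccl6, a mouse ligand of CCR1, with 50.8, 37.3, 60.8 and 9.48 CPM (339, 29, 312 and 3 UMIs), against 23.2, 7.57, 35.4 and 3.31 CPM in unnamed barcodes. All 4 libraries were above the background. Ccl3, an inflammatory ligand of CCR1, had 2.40, 0, 1.36 and 0 CPM (16, 0, 7 and 0 UMIs), against 0.802, 0.309, 1.41 and 0 CPM. Ccl22, a ligand of CCR4, had 1.05, 0, 0.195 and 0 CPM (7, 0, 1 and 0 UMIs), against 0.535, 0, 0.282 and 0.195 CPM. Ccl17, which shares that receptor, was not raised, at 0.749, 0, 0.390 and 0 CPM (5, 0, 2 and 0 UMIs), against 1.16, 0.154, 0.563 and 0 CPM. Ccl3 and Ccl22 passed the 1.5-fold mark through WT replicate 1 alone. Ccl24, a ligand of CCR3, had 3.36, 0, 17.5 and 0 CPM in dendritic-like nuclei (2, 0, 4 and 0 UMIs), against 3.48, 0.773, 4.34 and 0.389 CPM, and rested on CKO replicate 1. Kupffer-like nuclei held most Ccl24 UMIs of the macrophage sub-clusters, at 7.56, 10.4, 9.91 and 0 CPM (21, 3, 16 and 0 UMIs).

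In lymphocytes, T and NK-like nuclei were highest for Ccl5, a ligand of CCR1 and CCR3 that T and NK cells are known to store, with 86.1, 0, 8.10 and 39.2 CPM (29, 0, 2 and 1 UMIs). Unnamed barcodes had 3.83, 1.39, 1.86 and 0.389 CPM, and most of the 32 UMIs came from WT replicate 1. Ccl4, an inflammatory attractant, had 14.9, 0, 8.10 and 0 CPM in the same nuclei (5, 0, 2 and 0 UMIs), against 1.78, 0.464, 3.44 and 0.195 CPM. The second replicates held 13 and 14 such nuclei, so that 0 UMIs allow up to 134.7 CPM in WT replicate 2 and 118 CPM in CKO replicate 2.

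Ccl9 and Cxcl9 had no class raised over the background. Ccl9, a mouse ligand of CCR1, had 53.0, 0, 99.5 and 0 CPM in B-like nuclei (13, 0, 12 and 0 UMIs), its highest class, against 46.7, 40.5, 102 and 22.8 CPM in unnamed barcodes. Cxcl9, an interferon-induced ligand of CXCR3, had 6.73, 0, 13.1 and 0 CPM in dendritic-like nuclei (4, 0, 3 and 0 UMIs), against 7.31, 3.09, 8.45 and 6.62 CPM. For both, no class stood apart from unnamed barcodes, which bears on the genotype values below. Unnamed barcodes may hold nuclei that no marker list named as well as free RNA, and the source of these counts was not tested.

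Among receptors, macrophage-like nuclei were highest for the 4 that follow. Cx3cr1, the receptor of CX3CL1 and a mark of monocyte-derived cells, had 41.5, 38.6, 24.9 and 3.16 CPM (277, 30, 128 and 1 UMIs), against 14.3, 3.55, 12.4 and 1.56 CPM in unnamed barcodes. Its annotated gene body spans other counted genes, among them Gorasp1 and Csrnp1 on the same strand, so its values are uncertain. Gorasp1 had 9.38 CPM in macrophage-like and 12.8 CPM in hepatocyte-like nuclei, where Cx3cr1 had 10.7 CPM. Ccr1, an inflammatory receptor of several CCL ligands, had 15.3, 19.3, 13.8 and 6.32 CPM (102, 15, 71 and 2 UMIs), against 4.99, 1.70, 8.17 and 0.195 CPM. Ccr3, best known from eosinophils, had 16.9, 9.0, 18.7 and 0 CPM (113, 7, 96 and 0 UMIs), against 4.99, 1.08, 7.83 and 0.779 CPM. Cxcr4, the signalling receptor of CXCL12, had 4.49, 3.86, 2.92 and 3.16 CPM (30, 3, 15 and 1 UMIs), against 2.76, 1.85, 1.24 and 0 CPM. Apart from Ccr3 in CKO replicate 2, these 4 receptors were above the background in each library.

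These receptors differed between macrophage sub-clusters, which were formed without the chemokine genes. Ccr2, the receptor of CCL2, had 173, 72.4, 111 and 0 CPM in monocyte-like nuclei (156, 5, 48 and 0 UMIs) and 17.3, 3.48, 21.7 and 0 CPM in Kupffer-like nuclei, the resident macrophages (48, 1, 35 and 0 UMIs). Cx3cr1 had 111, 101, 104 and 36.0 CPM in monocyte-like nuclei (100, 7, 45 and 1 UMIs) and 15.8, 17.4, 8.05 and 0 CPM in Kupffer-like nuclei (44, 5, 13 and 0 UMIs). In the 3 libraries with UMIs of both genes, each receptor was higher in the monocyte-like nuclei. Ccr3 went the other way, with 27.7, 20.9, 31.0 and 0 CPM in Kupffer-like nuclei (77, 6, 50 and 0 UMIs) and 5.56, 0, 13.9 and 0 CPM in monocyte-like nuclei (5, 0, 6 and 0 UMIs). Ccr1 was lower in Kupffer-like nuclei (5.76, 6.96, 9.29 and 0 CPM) than in monocyte-like nuclei (36.7, 43.4, 18.6 and 0 CPM). An unnamed macrophage sub-cluster of 751 nuclei combined Cx3cr1 (89.0, 100.4, 43.7 and 0 CPM) and Ccr1 (30.6, 36.5, 30.8 and 16.6 CPM). Classes and sub-clusters were formed from these same nuclei, so differences between them are given without a test.

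**Figure D3:**
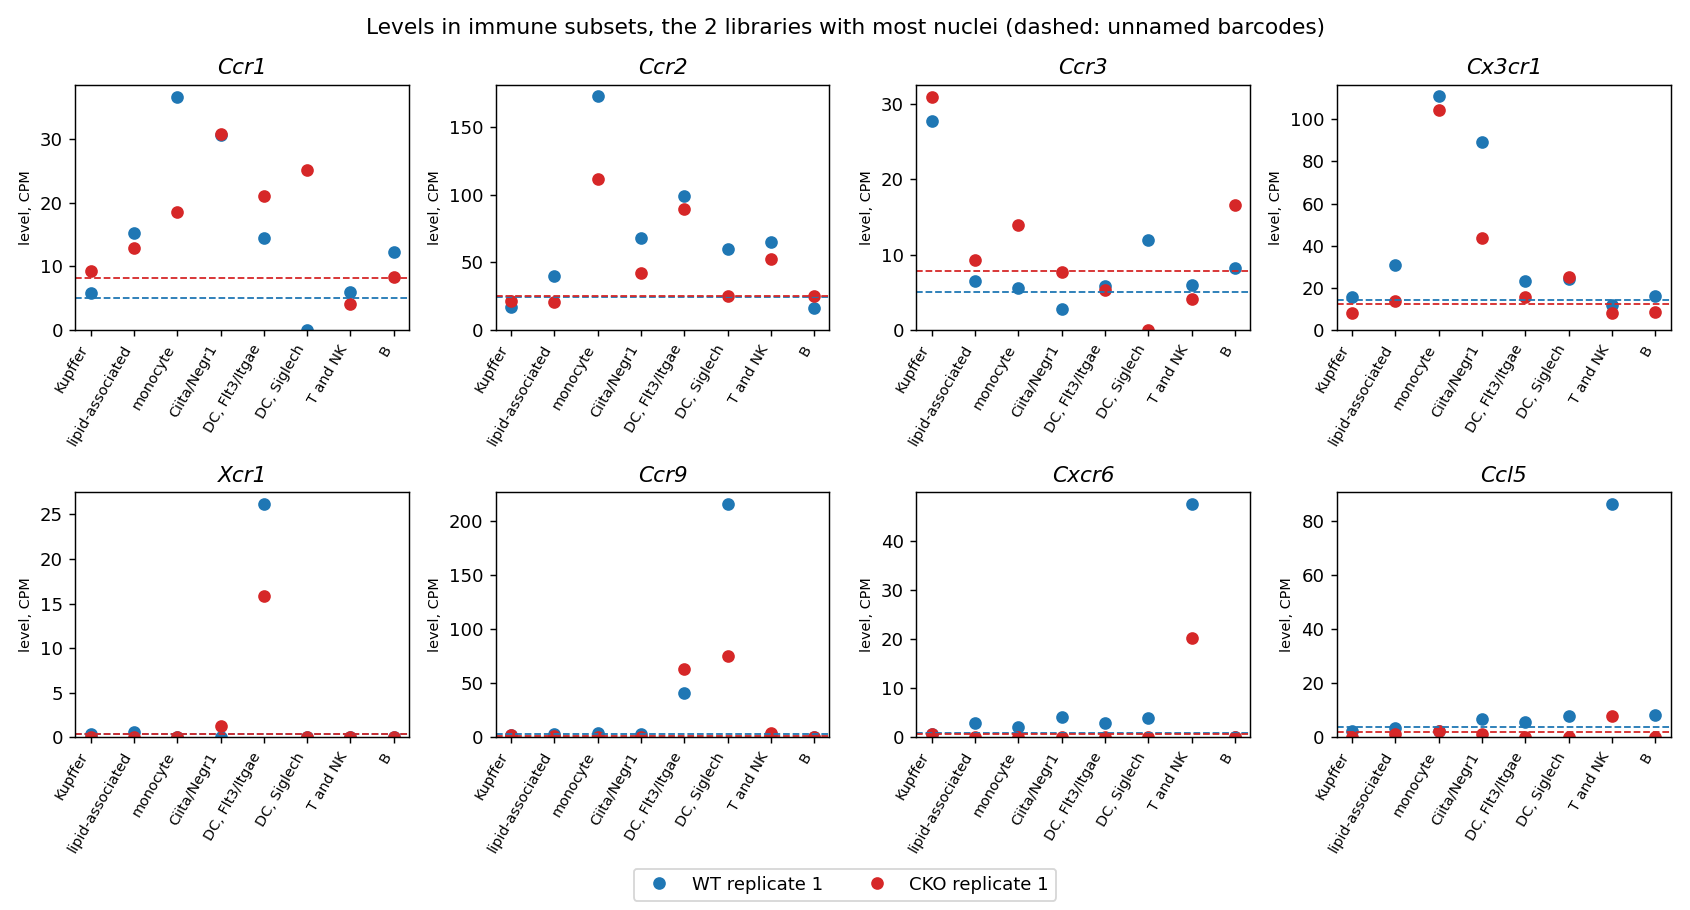
Level of 8 genes in CPM (y axis) in macrophage sub-clusters, dendritic clusters and lymphocyte classes (x axis) of WT replicate 1 (blue) and CKO replicate 1 (red), the libraries with most nuclei, shown where a set held 10 or more nuclei. Dashed lines give the level in unnamed barcodes of the same library. Ccr2 and Cx3cr1 are higher in the monocyte than in the Kupffer column, and Ccr3 is higher in the Kupffer column.

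Dendritic-like nuclei were highest for 5 receptors. Ccr9, the receptor of CCL25, had 114, 99.8, 65.5 and 126 CPM (68, 3, 15 and 4 UMIs), against 3.30, 0.618, 1.13 and 1.36 CPM in unnamed barcodes, and the summed level was 60.7 times the background. Ccr9 overlaps exons of Gm17200, a counted gene on the same strand with 2.26 CPM in dendritic-like nuclei, so its value is uncertain. The part of the class led by Siglech, a mark of plasmacytoid dendritic cells, had 216, 159, 75.3 and 108 CPM of Ccr9 (54, 3, 3 and 3 UMIs), and the part led by Flt3 and Itgae had 40.7, 0, 63.4 and 250.4 CPM (14, 0, 12 and 1 UMIs). Xcr1, the receptor of XCL1 and a mark of cross-presenting dendritic cells, had 15.1, 99.8, 13.1 and 0 CPM in the class (9, 3, 3 and 0 UMIs), against 0.356, 0.154, 0.338 and 0.195 CPM. Ccr7, which guides dendritic cells into lymph vessels, had 18.5, 0, 17.5 and 0 CPM (11, 0, 4 and 0 UMIs), against 0.535, 0.154, 0.451 and 0 CPM. All 15 UMIs of Xcr1 and all 15 of Ccr7 lay in the part led by Flt3 and Itgae. Ccr2 had 82.4, 33.3, 78.5 and 0 CPM in dendritic-like nuclei (49, 1, 18 and 0 UMIs), against 24.1, 5.25, 25.3 and 2.34 CPM, which was less than in monocyte-like nuclei in the 3 libraries with UMIs. Cxcr2, the neutrophil receptor of CXCL1 and CXCL2, had 10.1, 0, 4.36 and 0 CPM (6, 0, 1 and 0 UMIs), against 4.81, 1.24, 3.44 and 0.389 CPM. No cluster took a neutrophil name, and the 6 neutrophil markers summed to 113, 28.4, 81.1 and 7.59 CPM in unnamed barcodes. A count of 0 in dendritic-like nuclei allows up to 99.8 CPM in WT replicate 2 and 94.2 CPM in CKO replicate 2.

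Lymphocyte classes were highest for 3 receptors. Cxcr6, the receptor of CXCL16, had 47.5, 44.9, 20.2 and 0 CPM in T and NK-like nuclei (16, 1, 5 and 0 UMIs), against 0.980, 0.309, 0.620 and 0.389 CPM. Cxcr5, which guides B cells into follicles, had 32.6, 0, 8.29 and 0 CPM in B-like nuclei (8, 0, 1 and 0 UMIs), against 2.14, 1.39, 0.789 and 0.974 CPM. Ccr6, the receptor of CCL20, had 12.2, 0, 41.4 and 0 CPM in B-like nuclei (3, 0, 5 and 0 UMIs), against 0.535, 0, 0.225 and 0.389 CPM. Only the first replicates give B-like values with more than 3 nuclei. Ccr9, Cxcr6 and Cxcr5 also had UMIs in hepatocyte-like nuclei, at 5.89, 10.3, 1.79 and 7.65 CPM, 3.70, 5.62, 0.797 and 5.16 CPM, and 4.46, 3.98, 1.39 and 3.91 CPM. CKO replicate 1 was the lowest library for all 3. Each of the 3 lies over counted genes of the other strand (Lztfl1 and others, Fyco1 and Bcl9l), and Ccr9 also over Gm17200 on the same strand. Their hepatocyte-like values are thus uncertain.

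Among atypical receptors, Ackr4, which takes up CCL19, CCL21 and CCL25, was highest in hepatocyte-like nuclei. It had 90.6, 85.5, 24.7 and 152 CPM (954, 365, 124 and 853 UMIs), against 8.46, 6.03, 1.18 and 10.9 CPM in unnamed barcodes. The CKO replicates lay below and above both WT replicates, and the background kept the same order of libraries. Ackr4 (chr9:104084157-104126933, minus strand) lies over Acad11, a mitochondrial dehydrogenase gene on the other strand whose exons overlap it. Acad11 had 227, 161, 165 and 248 CPM in hepatocyte-like nuclei, against 129, 78.7, 114 and 114 CPM in unnamed barcodes, so the Ackr4 value is uncertain. Ackr2, a scavenger of inflammatory CCL ligands, had 12.5, 20.4, 6.38 and 14.6 CPM in endothelial-like nuclei (40, 9, 13 and 4 UMIs), against 1.43, 0.618, 1.07 and 0.779 CPM. The 31 lymphatic-like nuclei, the cells in which Ackr2 is best known, held 9 of its 66 endothelial-like UMIs, or 92.0 and 290.5 CPM in WT replicates 1 and 2 (6 and 3 UMIs). Ackr3, which binds CXCL12, had 22.8, 56.1, 28.9 and 33.5 CPM in mesothelial-like nuclei (3, 2, 1 and 2 UMIs) and 5.01, 9.08, 5.89 and 3.65 CPM in endothelial-like nuclei (16, 4, 12 and 1 UMIs). Unnamed barcodes had 1.25, 0.309, 0.789 and 0.389 CPM of it, below both classes in each library. Ackr1, a chemokine-binding receptor of venules and red cells, had 4.52, 0, 1.92 and 0 CPM in mesenchymal-like nuclei (9, 0, 2 and 0 UMIs), against 0.535, 0, 0.507 and 0.584 CPM. It overlaps exons of Cadm3, a counted gene on the same strand, so its value is uncertain.

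In this count of pairs, a gene with under 20 UMIs in named nuclei was counted as not raised whatever its level, so a partner outside the counts below may be too sparse to read. Set against a list of 41 textbook ligand and receptor pairs, both partners were raised in some class for 20 pairs, the receptor alone for 13, the ligand alone for 2 and neither for 6. From hepatocyte-like nuclei, Ccl25 was paired with Ccr9 in dendritic-like nuclei and with Ackr4 in the hepatocyte-like nuclei themselves. Cholangiocyte-like ligands were paired with receptors of dendritic-like nuclei (Ccl2 with Ccr2, Cxcl1 and Cxcl2 with Cxcr2), macrophage-like nuclei (Cx3cl1 with Cx3cr1, Ccl28 with Ccr3) and T and NK-like nuclei (Cxcl16 with Cxcr6). Ccr2 was not confined to dendritic-like nuclei. It was higher in monocyte-like nuclei, and T and NK-like nuclei had a summed level of 55.4 CPM (35 UMIs). The dendritic-like level of Cxcr2 rests on 7 UMIs and was above the background in 2 libraries only. Mesenchymal-like Cxcl12 was paired with Cxcr4 in macrophage-like nuclei and with Ackr3 in mesothelial-like nuclei. Among blood-derived classes, Ccl5 of T and NK-like nuclei had Ccr1 and Ccr3 as partners, and Ccl3 and Ccl6 of macrophage-like nuclei had Ccr1, all highest in macrophage-like nuclei. Both partners were also raised for Ccl24 with Ccr3 and Ccl21a with Ccr7 and Ackr4. Cxcl9 and Cxcl10 were not raised, and their receptor Cxcr3, with 17 UMIs in named nuclei, was too sparse to count. In WT replicate 1, WT replicate 2, CKO replicate 1 and CKO replicate 2 alone, 17, 6, 8 and 3 pairs had both partners raised, and without WT replicate 1 the number was 14. Some partners overlap another counted gene, among them Ccl25, Ccr9, Ackr4, Ccl2, Cx3cr1, Cxcl16 and Cxcr6, so pairs with them are uncertain. The counts say where RNA of both partners was found and nothing of contact between cells. Other gene pairs were not counted by the same rule, so the numbers do not set chemokine pairs apart.

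The genotype comparison asked how chemokine genes differed between libraries labelled CKO and WT. Rbpj, the targeted gene, was read first. In cholangiocyte-like nuclei, the class that shares Sox9, Epcam and Krt19 with hepatic progenitor cells, it had 74.2, 71.3, 74.5 and 43.6 TMM-scaled CPM (CPM on library sizes scaled by the TMM method), from 381, 45, 108 and 4 UMIs. The log2 change, CKO against WT, was -0.07 ± 0.26 (SE). In hepatocyte-like nuclei it was 0.05 ± 0.21 and in macrophage-like nuclei -0.58 ± 0.29, with Benjamini-Hochberg adjusted p-values of 0.99 to 1.0 in edgeR. The deleted part of the gene is not given in the sources used here, and 3' counts outside it would not show a deletion, so these values do not check the labels.

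No chemokine gene passed the threshold between genotypes. In hepatocyte-like, cholangiocyte-like, endothelial-like, mesenchymal-like and macrophage-like nuclei 22, 14, 13, 11 and 22 of them passed the filter on low counts. With edgeR's quasi-likelihood test and Benjamini-Hochberg adjustment over all genes, 0 of these and 0 of all genes (0%) passed an adjusted p of 0.05 in each class, and the same held for the 41 tested in all kept barcodes. At an unadjusted p under 0.05 in edgeR, 0, 1, 1, 1 and 2 chemokine genes were higher in CKO in that order, where all genes gave 0.823%, 2.37%, 3.19%, 3.89% and 3.17%. Lower in CKO were 0, 1, 0, 0 and 0, where all genes gave 0.89%, 2.6%, 1.94%, 3.55% and 2.1%. In all kept barcodes 0 of 41 were higher (all genes 0.578%) and 0 lower (0.863%), and in unnamed barcodes 0 of 30 were higher (0.574%) and 0 lower (0.56%). DESeq2 called 0 chemokine genes in each of these sets. The median log2 change of the tested chemokine genes was -0.09, 0.32, 0.29, 0.48 and -0.13, and that of all tested genes -0.02 to 0.01. The medians were split by replicate number, at -0.08, 0.22, 0.16, 0.17 and -0.08 within the first replicates and -0.40, -0.61, -1.26, -0.14 and -0.61 within the second, where CKO replicate 2 has few nuclei. Without CKO replicate 1 the medians were -0.91, -0.83, -0.53, -0.88 and -1.35. These are over the 24, 11, 6, 6 and 13 chemokine genes that passed the filter there, so the sets of genes differ. The mesenchymal-like median was also below 0 without WT replicate 2 (-0.02, over 15 genes) and without mixed sub-clusters (-0.09, over 6 genes).

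**Figure D4:**
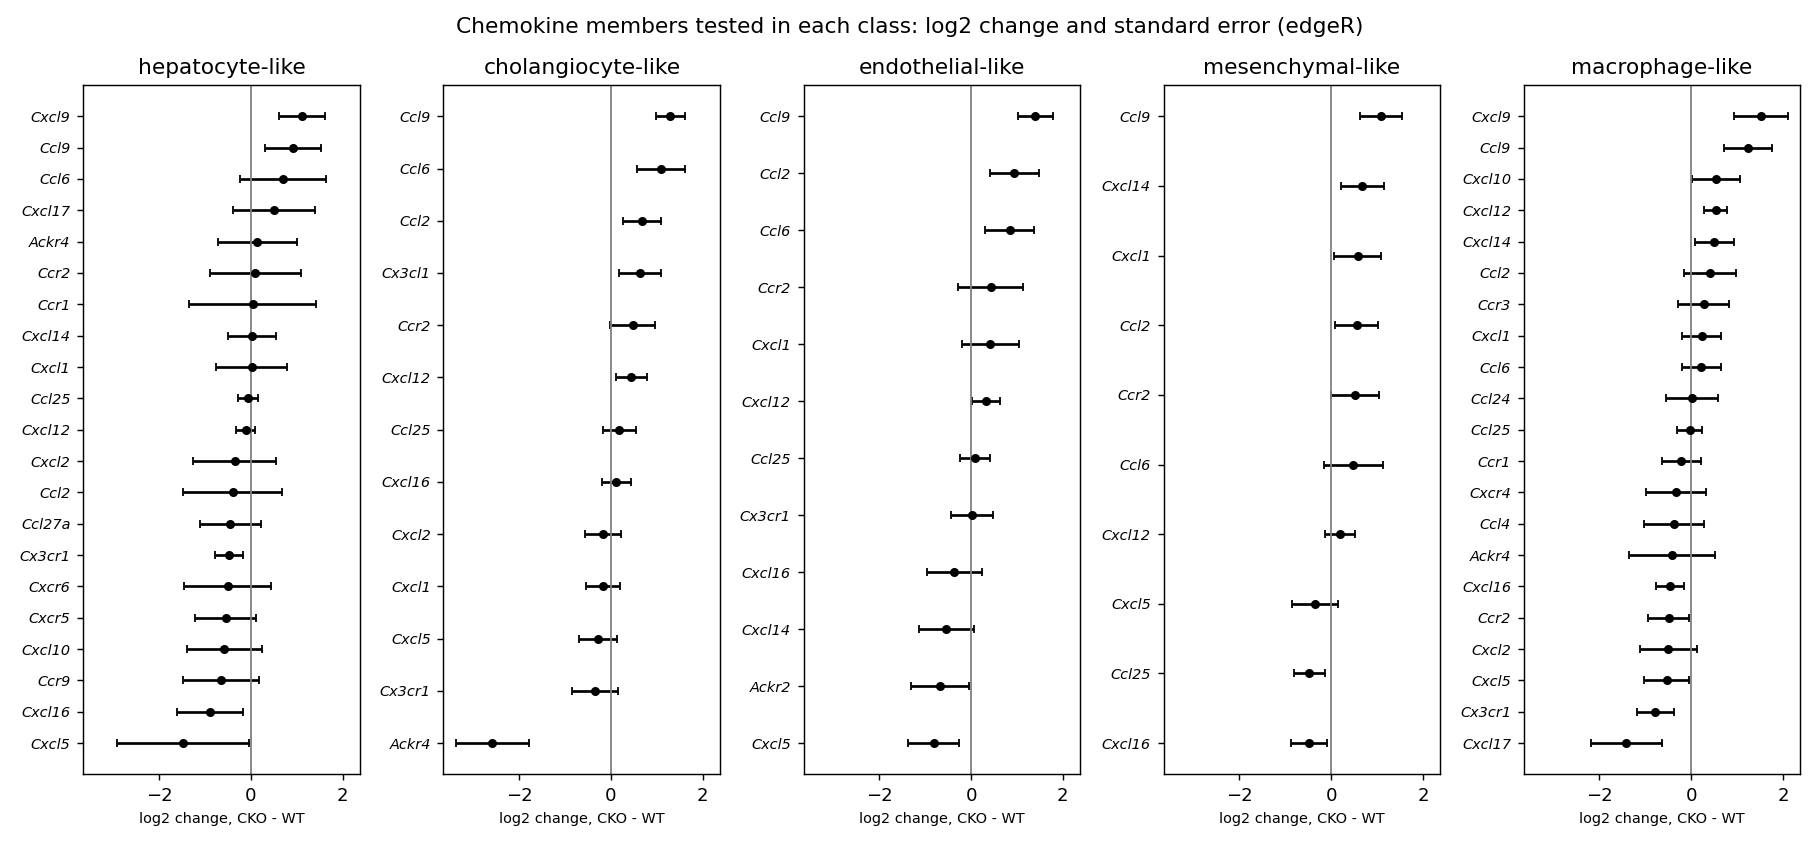
Points give the log2 change, CKO against WT (x axis), of the tested chemokine genes described here in 5 classes (panels). A grey line marks 0, and bars are standard errors worked out from the edgeR F statistic. Ccl9 lies above 0 in each panel, and none of the genes passed an adjusted p of 0.05.

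Ccl9 had the smallest p-value of the tested chemokine genes in cholangiocyte-like, endothelial-like and mesenchymal-like nuclei. In cholangiocyte-like nuclei it had 24.6, 23.8, 65.5 and 21.8 TMM-scaled CPM, a log2 change of 1.30 ± 0.31 (edgeR, Benjamini-Hochberg adjusted p = 0.68). In endothelial-like nuclei the values were 25.4, 31.3, 88.4 and 34.4 TMM-scaled CPM, with a log2 change of 1.4 ± 0.38 (edgeR, Benjamini-Hochberg adjusted p = 0.88). CKO replicate 1 stood far above the other 3 libraries, and the groups did not overlap in endothelial-like nuclei only. The same library was highest in mesenchymal-like nuclei (28.1, 34.9, 80.5 and 13.2 TMM-scaled CPM), macrophage-like nuclei (30.9, 17.9, 85.3 and 10.8), hepatocyte-like nuclei (17.0, 11.4, 41.2 and 13.01) and unnamed barcodes (34.0, 47.3, 90.6 and 30.4). Without CKO replicate 1 the log2 change was -0.16 in cholangiocyte-like, -1.19 in mesenchymal-like, -1.35 in macrophage-like and -0.15 in hepatocyte-like nuclei, and it stayed above 0 in endothelial-like nuclei at 0.36. Without CKO replicate 2, which leaves CKO replicate 1 alone in its group with its spread taken from WT, Ccl9 passed in edgeR with Benjamini-Hochberg adjusted p-values of 0.039 in cholangiocyte-like, 1.5e-07 in endothelial-like, 0.00051 in mesenchymal-like and 0.011 in macrophage-like nuclei. Without the filter on low counts it passed in cholangiocyte-like (0.026), endothelial-like (0.012) and macrophage-like nuclei (0.0047) in edgeR with the same adjustment. The 12 macrophage markers summed to 449.9, 187, 652 and 144 CPM in cholangiocyte-like nuclei and 993, 608, 1126 and 514 CPM in endothelial-like nuclei, again highest in CKO replicate 1, and their part in the result was not tested.

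Cxcl9 was higher in both CKO libraries than in both WT libraries in each of the 4 sets where it was tested. These were macrophage-like nuclei, hepatocyte-like nuclei, all kept barcodes and unnamed barcodes, where 15.5%, 12.4%, 13.3% and 10.6% of all genes did so. All kept barcodes contain the other sets, so the 4 share UMIs. In macrophage-like nuclei Cxcl9 had 2.99, 1.37, 7.88 and 7.23 TMM-scaled CPM, 2.18 ± 1.14 in WT and 7.55 ± 0.46 in CKO (SD, n = 2). These rest on 24, 1, 40 and 2 UMIs, so the values of the second replicates are imprecise whatever the SD. The log2 change was 1.52 ± 0.59 (edgeR, Benjamini-Hochberg adjusted p = 0.91). In hepatocyte-like nuclei it had 2.10, 1.46, 4.26 and 3.69 TMM-scaled CPM, with a log2 change of 1.12 ± 0.51 (edgeR, Benjamini-Hochberg adjusted p = 1.0). Over all kept barcodes it had 3.76, 2.47, 7.27 and 6.08 TMM-scaled CPM, with a log2 change of 1.09 ± 0.44 (edgeR, Benjamini-Hochberg adjusted p = 1.0). In unnamed barcodes both CKO libraries were again above both WT libraries, at 5.33, 3.61, 7.49 and 8.84 TMM-scaled CPM, so the values do not place the difference in a class. None of the 4 passed the adjusted threshold.

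**Figure D5:**
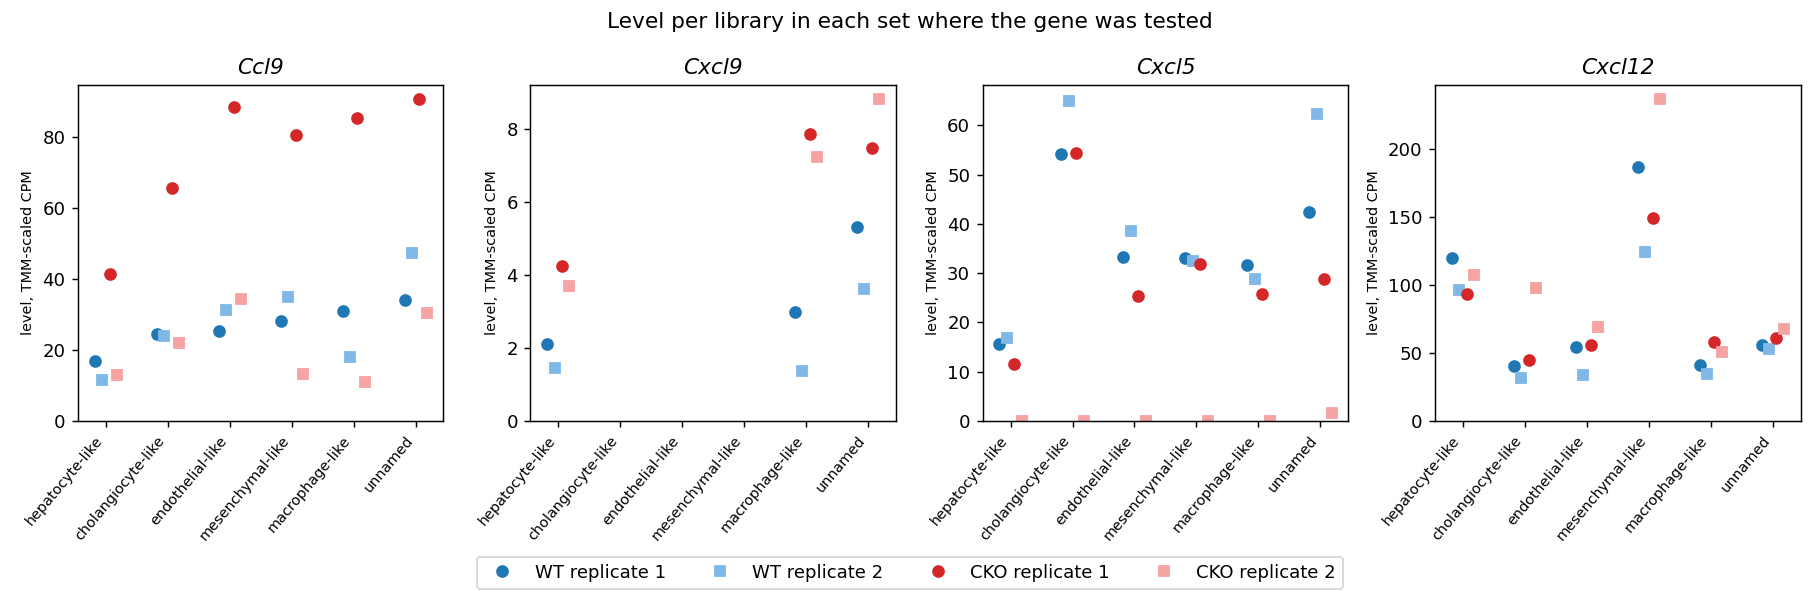
Level of Ccl9, Cxcl9, Cxcl5 and Cxcl12 in TMM-scaled CPM (y axis) in each set where the gene was tested (x axis), with 1 marker for each library (blue WT, red CKO, circles replicate 1, squares replicate 2). CKO replicate 1 is highest for Ccl9, both CKO libraries are highest for Cxcl9, and CKO replicate 2 is at 0 for Cxcl5 in the named classes.

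Other members with small p-values were read the same way. In cholangiocyte-like nuclei Ackr4 had 11.7, 14.3, 1.38 and 10.9 TMM-scaled CPM, with a log2 change of -2.58 ± 0.79 (edgeR, Benjamini-Hochberg adjusted p = 0.88), CKO replicate 1 being lowest. In hepatocyte-like nuclei, where it had most UMIs, its log2 change was 0.14 ± 0.86, from 83.5, 88.8, 24.0 and 166 TMM-scaled CPM. Ccl6 was next in cholangiocyte-like nuclei, at 8.96, 6.34, 20.01 and 0 TMM-scaled CPM (log2 change 1.09 ± 0.52). In endothelial-like nuclei Ccl2 and Ccl6 followed Ccl9, with log2 changes of 0.95 ± 0.54 and 0.84 ± 0.54, both highest in CKO replicate 1 and lowest in CKO replicate 2. In macrophage-like nuclei Cxcl12 had 40.8, 34.3, 57.7 and 50.6 TMM-scaled CPM (log2 change 0.53 ± 0.25, edgeR, Benjamini-Hochberg adjusted p = 0.98), with no overlap between groups. Mesenchymal-like nuclei, its highest class, gave 187, 125, 149 and 237 TMM-scaled CPM and a log2 change of 0.20 ± 0.32, with overlap. There Ccl9 was followed by Cxcl14 (0.68 ± 0.46) and Ccl25 (-0.48 ± 0.34), and in hepatocyte-like nuclei Cxcl9 was followed by Cx3cr1 (-0.47 ± 0.31) and Ccl9 (0.92 ± 0.60). The hepatocyte-like Cx3cr1 change is uncertain, because the gene body spans Gorasp1 on the same strand. Over all kept barcodes Ccl21a stood at 0.678, 0.658, 0.184 and 0 TMM-scaled CPM (log2 change -2.41 ± 1.03). The lymphatic-like nuclei, which held most of its endothelial-like UMIs, numbered 23, 5, 3 and 0, and their part in this change was not tested.

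Cxcl5 was nearly absent from CKO replicate 2. Over all kept barcodes it had 31.5, 42.0, 29.0 and 0.608 TMM-scaled CPM, and CKO replicate 2 had 0 UMIs in each of the 5 classes tested. In hepatocyte-like nuclei, where that library has most nuclei, the values were 15.6, 16.8, 11.6 and 0 TMM-scaled CPM, and 0 UMIs allow up to 0.534 CPM. CKO replicate 1 lay closer to the WT libraries than to CKO replicate 2, and the log2 change was -1.47 ± 1.44 there (edgeR adjusted p = 1.0). Without CKO replicate 1, which leaves CKO replicate 2 alone in its group, Cxcl5 passed in hepatocyte-like nuclei (edgeR, Benjamini-Hochberg adjusted p = 0.018) and in endothelial-like nuclei (adjusted p = 0.0073).

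Counts of chemokine genes whose groups did not overlap were read against all genes tested. Both CKO libraries lay above both WT libraries for 1, 2, 2, 2 and 3 chemokine genes in hepatocyte-like, cholangiocyte-like, endothelial-like, mesenchymal-like and macrophage-like nuclei, where all genes gave 12.4%, 13.5%, 16.0%, 17.1% and 15.5%. They lay below for 3, 2, 2, 3 and 5, where all genes gave 13.1%, 19.3%, 18.0%, 19.7% and 18.1%. The 3 higher ones in macrophage-like nuclei were Cxcl9, Cxcl12 and Cxcl14, and the 5 lower ones Cx3cr1, Cxcl16, Cxcl17, Cxcl5 and Cxcr4. Over all kept barcodes 4 of 41 were higher and 6 lower, against 13.3% and 11.5% of all genes. In unnamed barcodes 2 of 30 were higher and 7 lower, against 10.6% and 11.3% of all genes. Shares of this size lie near those of all genes in the named classes.

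A further list held genes that signal below the receptors or handle chemokines, such as G proteins, arrestins and Dock2. With edgeR 34, 29, 33, 29 and 36 of them were tested in hepatocyte-like, cholangiocyte-like, endothelial-like, mesenchymal-like and macrophage-like nuclei. None of them had an unadjusted p under 0.05 in edgeR in any of these classes. The smallest p-values in hepatocyte-like nuclei were those of Ptk2b, a kinase activated by chemokine receptors (log2 change 0.53 ± 0.23), and Grk3, a receptor kinase (-0.53 ± 0.36). In cholangiocyte-like nuclei they were those of Rela, an NF-kappaB subunit (0.44 ± 0.28), and Dock2, which drives leukocyte migration (0.54 ± 0.36). Endothelial-like nuclei gave Pik3r5 (0.88 ± 0.49) and Pik3cd (0.63 ± 0.41), mesenchymal-like nuclei Pik3cd (0.81 ± 0.39) and Grk3 (-0.61 ± 0.35), and macrophage-like nuclei Pik3cg (-0.61 ± 0.36) and Rgs2 (-0.55 ± 0.39), subunits of PI3 kinase or regulators of G protein signals. The smallest Benjamini-Hochberg adjusted p of the list in edgeR was 0.70, for Pik3cd in mesenchymal-like nuclei.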

How the data were processed

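Single-nucleus RNA sequencing (10x 3' v3.1 kit, nuclei of fresh-frozen liver with paraformaldehyde added, per the labels' protocols) gave 2 WT and 2 CKO libraries, grouped and numbered by the labels. The authors deposited raw UMI counts per gene and barcode for 32285 genes and 7 added sequences, made with Cell Ranger 5.0.1 on mm10 per the submitters' processing notes. Whether intron reads were counted, and with which strand setting, is not given in the sources used here.

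Barcodes with at least 500 genes were used, which removed none, and the highest Scrublet scores were removed (0.8% per 1000 barcodes). Clusters came from log-normalised counts of the 2000 most variable genes, less the 9 chemokine genes among them, reduced to 30 principal components, joined in a graph of 15 neighbours and split by the Leiden method (resolution 1) (Python 3.11.15, scanpy 1.11.5, igraph 0.11.9, scikit-learn 1.9.0). A cluster took a class name from at least 3 listed markers, each with 5 or more UMIs and at 1.5 times or more both the other clusters and the free RNA estimated from the 10% of barcodes with fewest UMIs. Sub-clusters used 15 principal components. The naming rule, the 5-UMI and 1.5-fold rules for a highest class, the fit on unnamed barcodes and the removal of mixed sub-clusters were chosen after seeing the data. The chemokine genes, marker lists, pair list and signalling list were chosen with earlier results of these data known.

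Counts were summed per class and library. Classes with 20 or more nuclei in each library were fitted for all genes with edgeR 4.0.16 (R 4.3.3, limma 3.58.1, filterByExpr, TMM, quasi-likelihood test, two-sided, Benjamini-Hochberg adjusted p under 0.05), with genotype as the only term. The standard error (SE) given with an edgeR log2 change is its absolute value divided by the square root of the test's F statistic. Alternatives were RLE scaling, DESeq2 1.42.0, no count filter, a replicate block, each library left out, each library alone, a minimum of 1000 UMIs, Leiden resolution 2 and chemokine genes among the clustering genes. The fits were also run on simulated counts with a fixed spread and no further differences between libraries of a genotype. Single libraries stood apart in the real data, so the simulation is not used as support here. Genes were named by rule: for levels, those with 20 or more UMIs in named nuclei, and for genotype the 3 chemokine genes and 2 signalling genes with the smallest p per class. Gene positions are from GENCODE M21 (GRCm38), where 14 of the 43 genes overlap another counted gene, 3 of them on the same strand. Promoter windows are from RefSeq (GRCm38.p6). 1 matching gene enters the counts and fits but is not reported here.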

Additional observations from a re-analysis of the deposited data

Results flagged for a closer look

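Cxcl14, a ligand of epithelia and stroma with no settled receptor, differed in direction between classes. In macrophage-like nuclei both CKO libraries lay above both WT libraries (8.34, 8.24, 12.01 and 10.8 TMM-scaled CPM, log2 change 0.50). In endothelial-like nuclei both lay below (12.7, 14.5, 10.9 and 0 TMM-scaled CPM, log2 change -0.54). The last value is 0 UMIs, which allows up to 10.9 CPM, a limit that covers counting error only. The log2 changes differed by 1.04, and this difference was not tested. In unnamed barcodes the values were 15.3, 13.2, 14.1 and 10.7 TMM-scaled CPM, above the macrophage-like level in 3 of the 4 libraries.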

How the results depend on the processing

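With RLE scaling, DESeq2, Leiden resolution 2 and chemokine genes among the clustering genes, 0 chemokine genes passed in any fitted set, as in the reported fits. At Leiden resolution 2 the macrophage-like nuclei of CKO replicate 1 fell from 2230 to 1185. In that class 4 of 17 tested chemokine genes then had an unadjusted p under 0.05 in edgeR (all genes 726 of 11083). The reported fit had 2 of 22 (all genes 644 of 12215). A minimum of 1000 UMIs removed no barcode and so tested nothing. Without the count filter 1 passed in cholangiocyte-like, endothelial-like and macrophage-like nuclei (Ccl9) and 1 in unnamed barcodes (Cxcl5). Leaving out each library in turn gave 0 to 1 called chemokine genes in cholangiocyte-like, hepatocyte-like, macrophage-like and mesenchymal-like nuclei, 0 to 3 in endothelial-like nuclei and 0 to 2 in unnamed barcodes. All of these calls came without CKO replicate 1 (Cxcl5 and Cxcl16 in endothelial-like nuclei, Cxcl5 in hepatocyte-like nuclei, Cxcl5 and Ccl2 in unnamed barcodes) or without CKO replicate 2 (Ccl9 in 4 classes, with Ccl2 and Ccl6 in endothelial-like nuclei), where the lone sample is assumed to vary like the WT libraries. Without mixed sub-clusters 0 passed in endothelial-like and mesenchymal-like nuclei.

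With 1 library alone, the number of chemokine genes raised over unnamed barcodes was 31, 19, 25 and 12 (33 with all libraries), and of pairs with both partners raised 17, 6, 8 and 3 (20 with all libraries). Without each library in turn these were 29 to 34 and 14 to 23. The highest class stayed the same for 43 of 43 genes with chemokine genes among the clustering genes, 37 at Leiden resolution 2 and 26 without WT replicate 1, and for 33, 15, 21 and 4 in each library alone. Depth limits the small classes most.

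Leaving out each library in turn reversed some directions, and the cause was not tested. The log2 change of Ccl9 ran from -0.49 to 1.69 in all kept barcodes, -0.16 to 1.43 in cholangiocyte-like, -0.15 to 1.5 in hepatocyte-like, -1.35 to 1.71 in macrophage-like and -1.19 to 1.44 in mesenchymal-like nuclei, below 0 only without CKO replicate 1. Dock2 ran from -0.67 to 1.10 in cholangiocyte-like nuclei and Pik3cd from -0.19 to 1.22 in endothelial-like nuclei, each below 0 only without that library. Rbpj ran from -0.43 to 0.087 in all kept barcodes, -0.75 to 0.034 in cholangiocyte-like nuclei, -0.11 to 0.20 among hepatocyte-like nuclei and -0.38 to 0.12 in unnamed barcodes. The log2 change of Rbpj in endothelial-like nuclei ran from -0.082 to 0.67.

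No label ties the replicate numbers to animals or days. Deviations of same-numbered libraries correlated at 0.49 in all kept barcodes, 0.46 in unnamed barcodes and 0.08 to 0.27 in the classes, over 2 pairs only. With a replicate block 0 chemokine genes passed in any set.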
